A study of Mus musculus with 4 samples.

Results

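The genes described here are 10 regulators of oxidative metabolism that were chosen by name. They are the receptors *Ppara*, *Ppard*, *Rxra*, *Rxrg*, *Esrra*, *Esrrb* and *Esrrg*, the coactivators *Ppargc1a* and *Ppargc1b*, and the muscle regulator *Perm1*. All 10 were found among the 21755 protein-coding genes of the GENCODE annotation of mm10 that were considered. The question was whether chromatin at their starts, in their introns and in the 50 kb on each side was open in endothelial nuclei of the heart as it was in the other nuclei.

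The assay was ATAC-Seq, in which the transposase Tn5 cuts accessible DNA, on nuclei of whole hearts from male C57BL/6 mice aged 8 to 12 weeks. All 4 libraries came from NuTRAP/Cdh5-Cre animals, in which Cre driven by the endothelial *Cdh5* promoter switches on a GFP tag of the ribosomes. Their nuclei were sorted by GFP signal. GFP+ nuclei (2 libraries) therefore come from cells with a history of *Cdh5* expression, while GFP- nuclei (2 libraries) are the mixture of the remaining cells, among them cardiomyocytes, fibroblasts, pericytes and macrophages. Nuclei were sorted as single nuclei with 2 n DNA content, and 100 to 50000 of them went into a reaction.

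Each population was represented by 1 list of peaks called from both of its libraries together. The GFP- list held 78912 peaks and the GFP+ list 65008, called after the authors had downsampled the libraries to a common depth. No comparison below therefore has a replicate check, and no p-value is given. The measure is the area of a peak, a signal summed over its length, given as a percentile rank in its own list, where 100 is the largest peak. In a sorted population, fewer nuclei with an open site and a less open site in each nucleus cannot be told apart.

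The labels were compared with marker genes. Of 10 endothelial markers, 6 had a start peak in both lists and 4 (*Pecam1*, *Erg*, *Emcn* and *Cldn5*) in the GFP+ list only, while the rank of *Cdh5* was 17.96 in the GFP- and 85.3 in the GFP+ list. *Tek* went the other way, at 81.1 and 54.1. All 10 cardiomyocyte markers had a start peak in both lists, among them *Myh6* at rank 100 in both and *Pln* at 86.3 in GFP- and 79.6 in GFP+. Of the 9 besides *Myh6*, 7 were lower and 2 higher in GFP+, and the median difference of the 10 was -2.05 points. Of 10 fibroblast markers, 6 were in the GFP- list only and 3 in both, and of 10 pericyte and smooth muscle markers 6 and 4. Of 10 macrophage markers, 1 was in the GFP- list only, 2 were in both and 7 in neither. The part of cardiomyocyte DNA in the GFP+ values below was not tested.

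These genes form a connected circuit. PPARα and PPARδ, encoded by *Ppara* and *Ppard*, bind fatty acids and switch on genes of fatty acid uptake and oxidation, and they bind DNA together with a retinoid X receptor such as the products of *Rxra* and *Rxrg*. The estrogen-related receptors, encoded by *Esrra*, *Esrrb* and *Esrrg*, need no known natural hormone and drive genes of the citric acid cycle and the respiratory chain. PGC-1α and PGC-1β, the products of *Ppargc1a* and *Ppargc1b*, do not bind DNA themselves but dock on these receptors and raise their output, and PERM1 is induced by PGC-1 and ERR proteins in striated muscle. Heart muscle burns mainly fatty acids.

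Several of these genes have alternative starts, and the DNA in front of them differs. Sequences of GRCm38.p6 (RefSeq) are shown for the 250 bases just before a start, 5′ to 3′ on the strand of the gene, and CG pairs are in capitals in the first set. The set contrasts the main start of *Rxra* (chr2:27676951-27677200), which had a large peak, an inner protein-coding start of *Rxra* (chr2:27709042-27709291), which had none, and the start of *Perm1* (chr4:156215618-156215867), which had a large peak with few CG pairs.
Rxra start 2: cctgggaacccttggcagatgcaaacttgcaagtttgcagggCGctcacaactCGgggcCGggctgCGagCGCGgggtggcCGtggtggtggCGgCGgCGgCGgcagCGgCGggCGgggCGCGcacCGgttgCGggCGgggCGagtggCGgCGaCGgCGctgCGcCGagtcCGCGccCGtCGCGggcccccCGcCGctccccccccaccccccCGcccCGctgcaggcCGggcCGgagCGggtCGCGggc
Rxra start 3: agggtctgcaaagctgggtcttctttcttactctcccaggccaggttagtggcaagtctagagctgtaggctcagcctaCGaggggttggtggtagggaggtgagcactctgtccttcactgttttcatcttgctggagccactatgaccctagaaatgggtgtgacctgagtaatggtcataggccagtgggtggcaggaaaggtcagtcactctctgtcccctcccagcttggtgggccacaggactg
Perm1 start 1: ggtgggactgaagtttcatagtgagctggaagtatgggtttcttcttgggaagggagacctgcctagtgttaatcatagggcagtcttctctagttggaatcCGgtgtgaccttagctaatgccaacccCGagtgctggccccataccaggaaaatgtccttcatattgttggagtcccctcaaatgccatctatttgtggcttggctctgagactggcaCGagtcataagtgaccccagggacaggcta
The upstream DNA of the main *Rxra* start held 40 CG pairs, that of its inner start 1 and that of *Perm1* 3.

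The second set shows both starts of *Ppargc1a*, the upstream one (chr5:51567727-51567976) and the proximal one 13.9 kb further along the gene (chr5:51553923-51554172), both on the minus strand. Capitals mark TGACGTCA, the cAMP response element (CRE) bound by CREB, through which PGC-1α is induced by cAMP.
Ppargc1a start 1: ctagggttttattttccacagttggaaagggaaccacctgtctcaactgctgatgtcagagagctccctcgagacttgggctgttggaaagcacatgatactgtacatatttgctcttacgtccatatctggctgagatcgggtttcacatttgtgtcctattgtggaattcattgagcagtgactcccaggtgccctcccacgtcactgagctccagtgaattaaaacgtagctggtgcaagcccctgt
Ppargc1a start 2: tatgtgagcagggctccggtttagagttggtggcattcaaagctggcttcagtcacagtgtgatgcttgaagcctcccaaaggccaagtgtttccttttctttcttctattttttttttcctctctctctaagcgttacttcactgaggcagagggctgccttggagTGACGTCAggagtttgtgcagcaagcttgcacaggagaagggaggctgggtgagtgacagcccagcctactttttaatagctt
The element was present in front of the proximal start, with its first base at position -83 from it, and not in these letters in front of the upstream start. It lay within 300 bp windows around the summits of the start peaks of both lists.

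The third set shows the DNA in front of an inner start of *Ppard* (chr17:28271458-28271707), the start whose rank was most raised in GFP+, and the 300 bases around the GFP- summit of a peak downstream of *Rxra* (chr2:27774394-27774693, plus strand), the shared region whose rank was most lowered. Capitals mark CCGGAAGT, the site of the ETS factor GABPA, and AGGTCA, the core motif of nuclear receptors, in *Ppard* (either strand), and the CRE in *Rxra*.
Ppard start 2: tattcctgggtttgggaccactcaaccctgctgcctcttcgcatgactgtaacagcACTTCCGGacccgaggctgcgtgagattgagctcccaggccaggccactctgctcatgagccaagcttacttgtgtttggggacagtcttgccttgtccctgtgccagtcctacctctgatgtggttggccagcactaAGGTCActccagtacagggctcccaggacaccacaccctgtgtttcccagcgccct
Rxra downstream: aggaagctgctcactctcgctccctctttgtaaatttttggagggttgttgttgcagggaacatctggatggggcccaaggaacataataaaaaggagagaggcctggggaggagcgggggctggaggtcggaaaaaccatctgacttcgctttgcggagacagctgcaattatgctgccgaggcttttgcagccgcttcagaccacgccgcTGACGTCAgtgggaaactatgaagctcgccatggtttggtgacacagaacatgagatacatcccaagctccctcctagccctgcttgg

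All 10 genes had a start peak in both lists, where a start peak overlaps the 250 bp to either side of an annotated transcript start. Among all protein-coding genes the share was 58.8%. Starts whose windows touched were joined into start groups, 26 for these genes, numbered along each gene. Of them, 20 had a GFP- peak and the same 20 a GFP+ peak, 76.9% in each case (Wilson 95% interval, 57.9 to 89.0, counting error only), against 34.3% and 32.4% of all 52256 start groups. A peak that spans several start groups counts in each. The GFP+ rank was lower at 16 of these 20 start groups and higher at 4, by a median of -0.429 points (95% interval of the median, -3.04 to -0.00273), where the median over all start groups was -0.766. This interval treats the start groups as independent although some share a peak, and it covers no variation between replicates. At 15 the ranks lay within 5 points, a share like the 75.6% of all start groups. No start group of these genes was lower or higher by more than 20 points, where 5.63% of all start groups with peaks in both lists were lower and 1.79% higher by that much. With other ranks a single start group passed that mark, higher in GFP+ with lists of equal length (the GFP- list reduced to its largest 65008 peaks), or lower with ranks by p-value or by area per bp. With lists of equal length 2.89% of all start groups were higher by that much. With the p-value and area per bp, 6.04% and 9.25% were lower. The median difference of these genes had no stable sign either, at 0.105 points with lists of equal length, 1.3 with area per bp and -1.16 with the p-value rank.

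**Figure D1:**
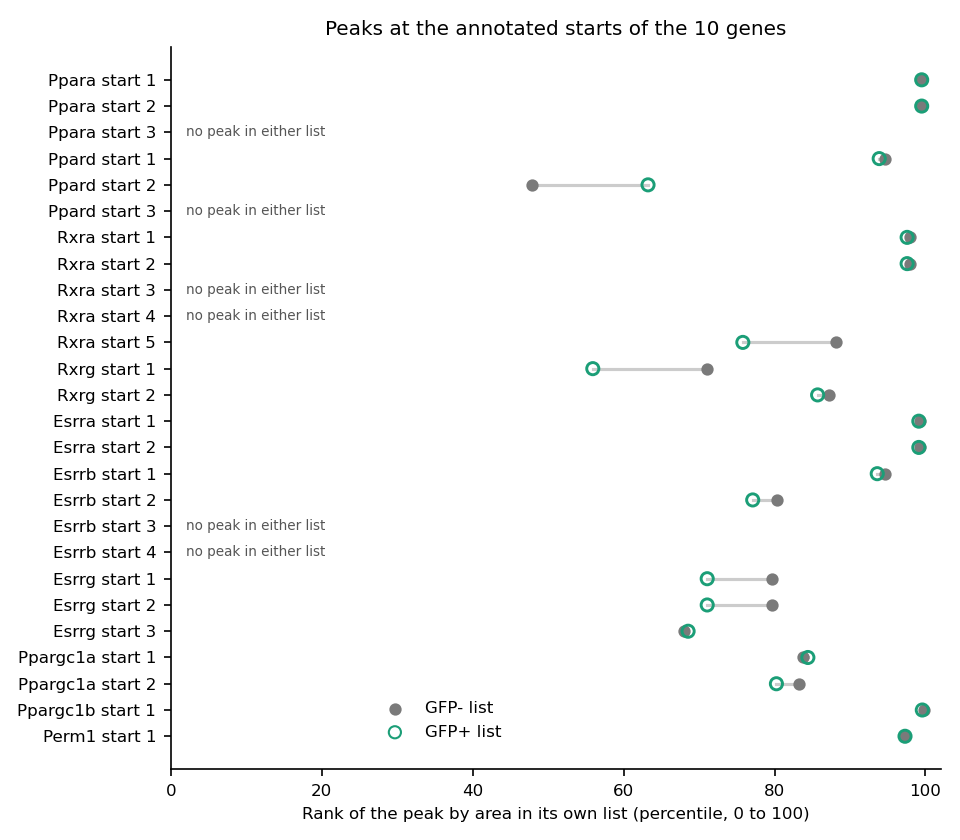
Rank of the peak at each of the 26 start groups of the 10 genes, in percentiles of its own list, with filled grey points for the GFP- list and open green points for the GFP+ list. The 6 start groups with no peak are labelled, and the wide gaps are those of Ppard start 2, Rxra start 5 and Rxrg start 1.

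Among the PPAR genes, *Ppara* (chr15:85734983-85802819) had 1 of the largest peaks of either list at its start. The peak covered 3070 bp in GFP- and 2564 bp in GFP+ nuclei, and its rank was 99.5 in both lists, at position 397 of the GFP- and 329 of the GFP+ list. It spanned the first and second start groups, and a non-coding transcript starting 37.2 kb into the gene had no peak. *Ppard* (chr17:28232700-28301474), which encodes the more widely expressed PPARδ, had ranks of 94.6 in GFP- and 93.9 in GFP+ at its main start. Its inner start, 39.0 kb downstream and shown above, was higher in GFP+, at 63.2 against 47.9 (15.3 points, and 26.5 with lists of equal length). That peak was also longer in GFP+ (440 bp) than in GFP- nuclei (259 bp), and a further small GFP- peak of rank 20.3 lay beside it.

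Of the retinoid X receptor genes, *Rxra* (chr2:27676440-27762957) was open at its main start in both lists, at ranks of 98.0 in GFP- and 97.6 in GFP+. Protein-coding starts 32.9 and 34.1 kb into the gene had no peak. A non-coding transcript starting 63.8 kb into the gene had a peak of 1595 bp and rank 88.2 in GFP- and of 637 bp and rank 75.8 in GFP+. *Rxrg* (chr1:167598384-167639623), the isotype found in striated muscle, had the most lowered start in the full lists. At its first start the rank was 71.1 in GFP- and 55.9 in GFP+ (-15.2 points, and -9.0 with lists of equal length). With lists of equal length the non-coding start of *Rxra* was the most lowered, at -9.89 points. At the second start of *Rxrg*, 19.9 kb downstream, the ranks were 87.3 and 85.7. The start with the higher rank was thus the inner one in both lists.

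The *Esrr* genes spanned a wide range. *Esrra* (chr19:6910977-6921813), the ubiquitous member, had a single peak over both of its start groups at ranks of 99.3 in GFP- and 99.1 in GFP+, and it was longer in GFP- (2682 bp) than in GFP+ nuclei (1827 bp). *Esrrb* (chr12:86361117-86521628), known from pluripotent cells and the inner ear, was nevertheless marked at 2 of its 4 start groups in both lists, at 94.6 and 93.6 for the first and 80.3 and 77.1 for the second, 60.5 kb downstream. The other start groups of *Esrrb* had no peak. *Esrrg* (chr1:187608791-188214885), the member prominent in heart and skeletal muscle, had the lowest ranks of the 10 genes at its best start, 79.7 in GFP- and 71.1 in GFP+, and 68.1 and 68.6 at start group 3, 389 kb further along.

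The coactivators differed from each other more than the populations did. *Ppargc1a* (chr5:51454250-51567726) ranked 83.8 in GFP- and 84.4 in GFP+ at its upstream start, the alternative start known from muscle and brown fat, and 83.3 and 80.3 at the proximal start with the CRE. At the upstream start the GFP+ peak was the longer (1244 against 867 bp) and at the proximal start the GFP- peak was (1023 against 879 bp). Both starts were thus open in both lists, with differences of 0.635 and -3.04 points. *Ppargc1b* (chr18:61298136-61400431) had the largest start peak of the 10 genes, at position 169 of the GFP- list (rank 99.8, 3760 bp) and 274 of the GFP+ list (rank 99.6, 3714 bp). The peak also covered the annotated start of *Mir378a*, a microRNA hosted by this gene. *Perm1* (chr4:156215868-156221307) ranked 97.3 in both lists with peaks of 2617 and 2320 bp.

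What the open starts shared was looked for in their sequence. In 501 bp windows on the start of lowest coordinate in each group, the 20 groups with peaks in both lists had a median GC content of 60.1% (45.7 to 79.6) and the 6 without a peak 53.7% (43.5 to 57.7). The observed over expected CG ratio had a median of 0.599 (0.127 to 1.10) with and 0.137 (0.0844 to 0.682) without a peak. Over all start groups it was 0.75 for those with peaks in both lists. For the rest, some of which had a peak in 1 list, it was 0.235. A low ratio did not always go with absence of a peak: *Perm1* (0.127), both starts of *Ppargc1a* (0.27 and 0.19), the inner start of *Ppard* (0.206) and the non-coding start of *Rxra* (0.26) all had peaks in both lists. *Esrrb* start 3 (0.682) had no peak in spite of a high ratio.

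Motifs were searched on both strands in 300 bp RefSeq promoters (250 bases before and 50 after a start), of which 15 belonged to 9 of the genes. The ERR site TCAAGGTCA, which itself contains AGGTCA, was in none of the 15 and in 0.423% of all 32851 promoters. AGGTCA was in 3 (*Perm1*, an inner start of *Rxra* and the second of *Rxrg*), where 16.3% of all promoters held it. The NRF1 core CGCATGCG was in 1, that of *Ppara*, against 1.87% of all promoters, and the MEF2 site in 1, that of the first *Esrrg* start, against 3.19%. DR1, CCGGAAGT and the CRE were in none. The 15 did not include the proximal start of *Ppargc1a* or the inner start of *Ppard*, whose CRE and CCGGAAGT are shown above. Matches in these 15 promoters were thus few, and 1 match is too few to compare with a share.

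In the introns, the 10 genes held 110 GFP- and 98 GFP+ peaks. Of the GFP- peaks 92 (83.6%, Wilson 95% interval 75.6 to 89.4) were overlapped by at least 1 bp of a GFP+ peak, against 65.8% of the intronic GFP- peaks of all genes. Of the GFP+ peaks 92 (93.9%, 87.3 to 97.2) were overlapped by a GFP- peak, against 83.8% over all genes. The intervals cover counting error only, since neighbouring peaks are not independent. Merging overlapping peaks gave 112 intronic regions, of which 88 were in both lists, 18 in the GFP- list only and 6 in the GFP+ list only.

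**Figure D2:**
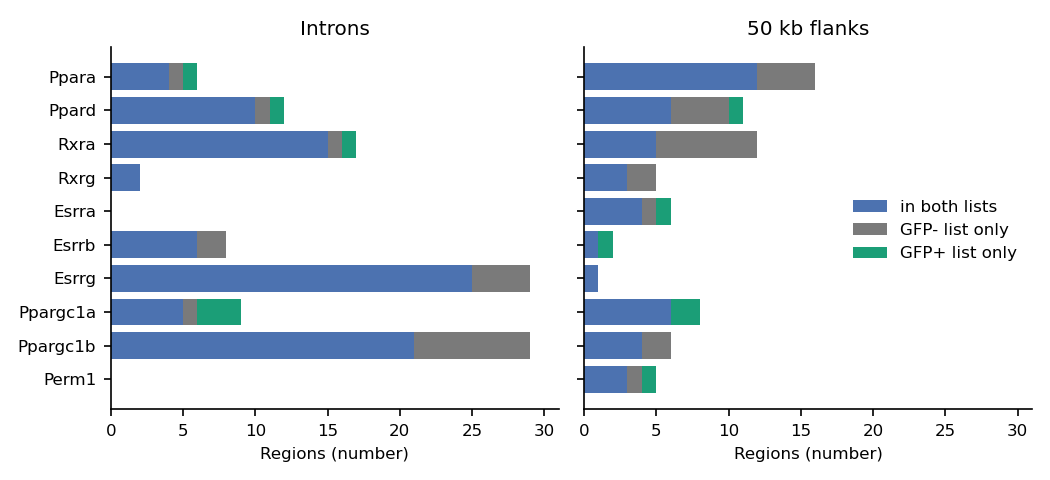
Number of merged intronic (left) and flank (right) regions of each gene, in both lists (blue), in the GFP- list only (grey) and in the GFP+ list only (green). Esrrg and Ppargc1b have 29 intronic regions each, Esrra and Perm1 none, and 7 of the 12 flank regions of Rxra are in the GFP- list only.

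The intronic regions lay mostly in *Ppargc1b*, *Esrrg* and *Rxra*. *Ppargc1b* had 31.3 GFP- and 23.5 GFP+ intronic peaks per 100 kb of gene, more than 99.9% and 99.5% of the 10068 genes of at least 20 kb, whose medians were 1.97 and 1.33. *Rxra* followed with 18.5 per 100 kb in both lists and *Ppard* with 16.0 in both. *Esrrg* is long, and its 29 regions were only 4.78 GFP- and 4.29 GFP+ peaks per 100 kb. *Esrra* and *Perm1*, the shortest of the genes, had no intronic peak. An exon of *Perm1* had a GFP+ peak of rank 31.2 and an exon of *Esrra* a GFP- peak of rank 43.5, each in 1 list.

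At the 88 intronic regions in both lists the GFP+ rank was lower at 59 and higher at 29, with a median difference of -4.92 points (95% interval of the median, -8.17 to -1.70) and a range of -39.7 to 41.7. It was lower by more than 20 points at 15, where 14.4% of the shared intronic regions of all genes were, and higher by that much at 2, where 5.91% were. This lean depended on the length of the lists. With the GFP- list reduced to its largest 65008 peaks, the median was 1.02 points. The median of all genes moved from -2.77 to 3.35 points. Of the 82 regions then in both lists, 3 were lower and 7 higher by more than 20 points. Over all genes 8.52% were lower and 12.8% higher by that much. Differences of a few points between the lists therefore have no stable direction. For some of the regions named below the value with lists of equal length is given too. For the others, the direction of a small difference may change with the length of the lists.

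**Figure D3:**
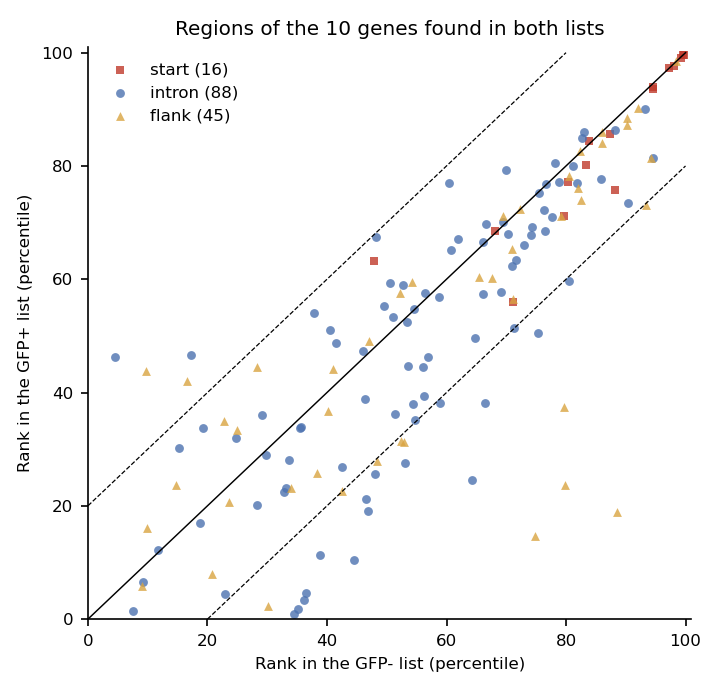
Rank in the GFP- list (horizontal) against rank in the GFP+ list (vertical), in percentiles, of each region of the 10 genes found in both lists, with squares for starts, circles for introns and triangles for flanks. The solid line marks equal ranks and the dashed lines differences of 20 points. The start regions sit within the dashed lines, and 4 flank regions with GFP- ranks of 74.8 to 88.5 lie far below them.

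Among the 8 genes with intronic regions in both lists, *Ppargc1b* had the lowest median difference. Of its 29 intronic regions, 21 were in both lists and 8 in the GFP- list only, the highest of these at rank 53.2, and none was in the GFP+ list only. The GFP+ rank was lower at 17 of the 21, with a median difference of -8.32 points that became -1.47 with lists of equal length. The region highest in GFP-, 68.5 kb from the start, had ranks of 94.6 in GFP- and 81.4 in GFP+. The region 82.9 kb from the start had ranks of 90.3 and 73.5, whereas that at 54.0 kb, the highest in GFP+, had 83.0 and 86.1.

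The introns of *Esrrg* split along the gene. Before the third start, 18 of 22 regions were in both lists and the median difference was -2.02 points (-25.5 to 14.9), with 1 lower by more than 20. After it, all 7 regions were in both lists, 5 were lower in GFP+ by more than 20 points and 1 was higher by 41.7, and the median difference was -31.9. The last region, 510 kb from the first start, had ranks of 64.2 and 24.5. With lists of equal length, 6 of the 7 remained in both lists, 2 were lower by more than 20 points and the median was -18.9. The intronic region highest in GFP-, at 228 kb, had 81.8 and 77.0, and that highest in GFP+, at 302 kb, 78.9 and 77.1. A region 43.2 kb from the first start, over the antisense transcript *Gm36388*, had ranks of 74.1 and 67.9. RefSeq places starts of *Esrrg* itself at this region, which are not among the GENCODE starts used here, so it was counted as intronic.

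The introns of *Rxra* were shared at 15 of 17 regions. The highest-ranked, 3.49 kb from the first start, had ranks of 93.2 in GFP- and 90.0 in GFP+. Regions at 11.8, 14.5 and 69.7 kb had higher ranks in GFP+, at 54.0 against 37.8, 76.9 against 60.3 and 67.5 against 48.1. Each of these differences passed 20 points with lists of equal length (29.5, 25.1 and 30.5). A region at 40.1 kb was lower, at 21.2 against 46.6 (-25.4 points, and -13.9 with lists of equal length).

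In *Ppard*, 10 of 12 intronic regions were in both lists. The highest-ranked, 3.76 kb from the first start, had 88.1 in GFP- and 86.3 in GFP+. Regions at 20.8, 24.5 and 29.3 kb were lower in GFP+, by -24.8, -20.8 and -28.3 points (-19.5, -16.6 and -21.1 with lists of equal length). In *Ppara*, 4 of 6 intronic regions were in both lists, the highest at 63.9 kb with 74.3 and 69.2. A region at 21.8 kb had 46.8 and 19.1, a difference of -27.7 points that was -16.3 with lists of equal length. Another at 54.2 kb had 17.3 and 46.6, and its GFP- peak is absent from the list of equal length.

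*Ppargc1a* was the gene with the most GFP+ only intronic regions, 3 of 9, all of low rank (3.05, 5.99 and 21.8). Its highest-ranked intronic region lay just past the proximal start, 15.0 kb from the upstream one, at 82.7 in GFP- and 84.9 in GFP+. A region 49.8 kb from the upstream start had 61.9 and 67.1. *Esrrb* had 6 of 8 intronic regions in both lists, led by 1 at 138 kb with 78.2 and 80.5, and a GFP- only region of rank 62.5 at 122 kb. *Rxrg* had 2 intronic regions, both shared, at 40.5 and 51.0 and at 33.2 and 23.2. The latter difference, of -10.0 points, turned to 4.28 with lists of equal length.

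**Figure D4:**
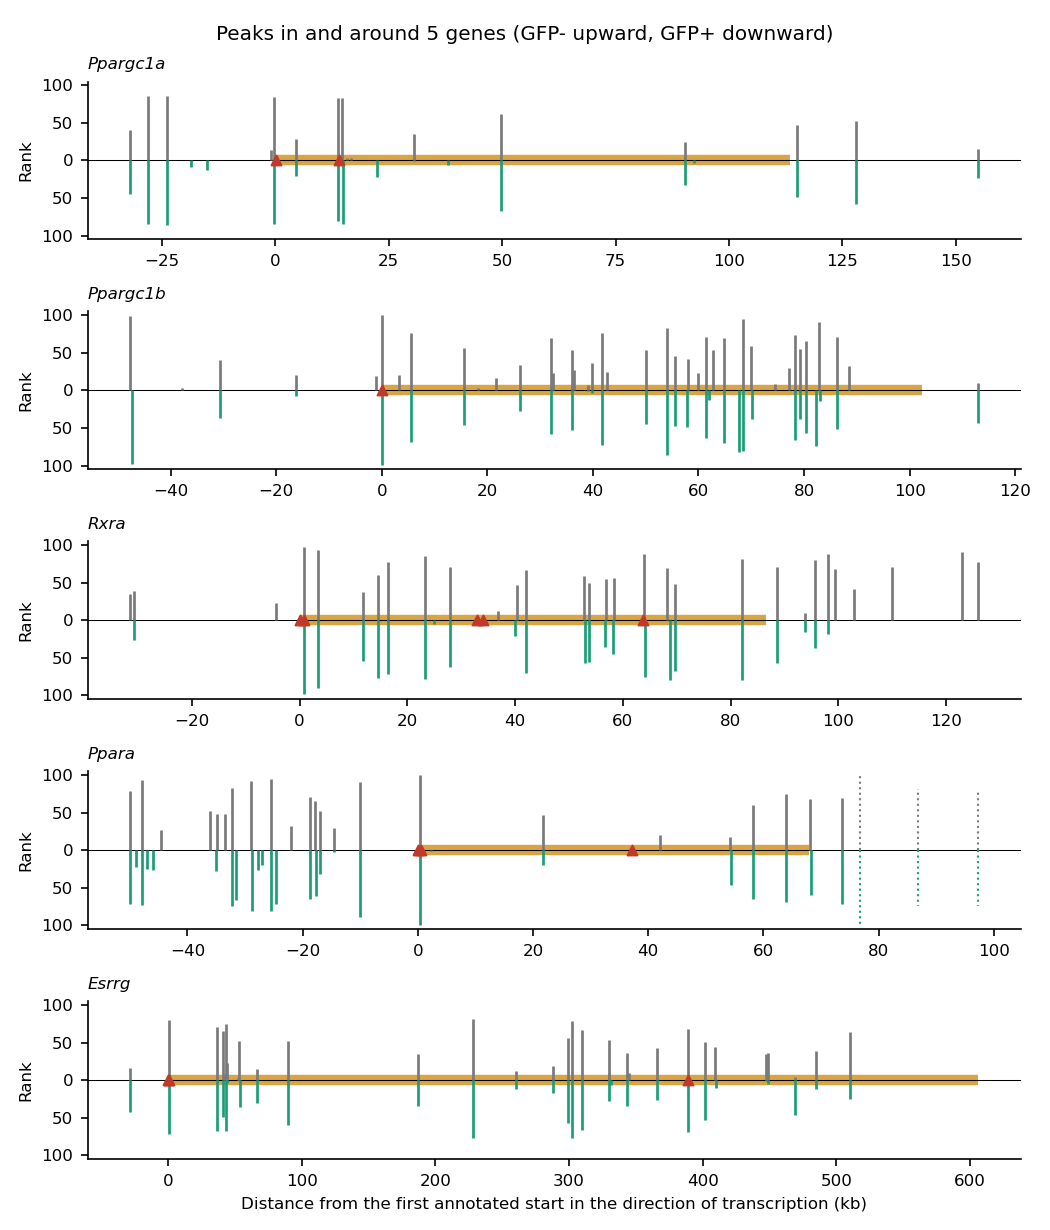
Peaks in and around 5 of the genes by distance of the summit from the first annotated start (kb, along the direction of transcription), with GFP- rank upward in grey and GFP+ rank downward in green (percentiles). The bar is the gene, triangles are start groups, and dotted lines are peaks at starts of neighbouring genes. The right end of the Rxra panel has GFP- lines with short or no GFP+ lines opposite.

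In the flanks, peaks at the starts of other protein-coding genes were left out, which left 69 GFP- and 59 GFP+ peaks. Of the GFP- peaks 48 (69.6%, 57.9 to 79.2) were overlapped by a GFP+ peak, against 68.2% over all genes, and of the GFP+ peaks 53 (89.8%, 79.5 to 95.3) by a GFP- peak, against 85.1%. The flanks of these genes were thus shared at rates near those of all genes. Of 72 merged flank regions 45 were in both lists, 21 in the GFP- list only and 6 in the GFP+ list only. The GFP+ rank was lower by more than 20 points at 9 of the 45 and higher at 2, against 13.7% and 5.71% over all genes, with a median of -3.17 points (-8.47 to -0.145) that was 0.501 with lists of equal length. Of the 40 flank regions then in both lists, 4 were lower and 3 higher by more than 20 points, against 7.98% and 12.4% over all genes.

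The largest differences in the flanks lay downstream of *Rxra*, *Ppard* and *Rxrg*. Downstream of *Rxra* 5 of 9 regions were in the GFP- list only, at ranks of 90.9, 77.5, 71.5, 68.0 and 42.3, and the highest (chr2:27798813-27799582) lay 123 kb from the first start. A further region, 98.1 kb from the first start and holding the CRE shown above, had a rank of 88.5 in GFP- and 18.8 in GFP+ (-69.7 points, and -67.2 with lists of equal length). The region at 95.7 kb had 79.7 and 37.4. No region in the flanks of *Rxra* was in the GFP+ list only.

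Downstream of *Rxrg*, 46.7 kb from its first start, a region had ranks of 79.8 in GFP- and 23.7 in GFP+ (-56.2 points, and -51.8 with lists of equal length), and another at 62.5 kb had 79.0 in GFP- and no GFP+ peak. Downstream of *Ppard*, 4 of 6 regions were in the GFP- list only, the highest at rank 82.0 and 113 kb from the first start, and a region at 109 kb had 74.8 and 14.6 (-60.1 points, and -54.7 with lists of equal length). The regions from 109 to 116 kb lay near the start of *Tead3*, which encodes a TEA domain factor and whose own start peak ranked 97.1 and 94.2. At least the regions at 113 and 116 kb lay inside *Tead3*. Upstream of *Rxrg* and *Ppard* the leading regions were shared, at 80.4 and 78.2 for the former and 90.1 and 87.2 for the latter. That of *Ppard* lay inside the neighbouring gene *Def6*.

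Upstream of *Ppara* lay the densest flank. Of 14 regions, 10 were in both lists and 4 in the GFP- list only, the highest of these at rank 52.8. All 10 shared regions had a lower GFP+ rank, with a median of -10.6 points. With lists of equal length 7 were lower and 3 higher, with a median of -7.05. The region highest in GFP-, at -27.1 kb from the first start, had ranks of 94.3 and 81.5. It merged 7 peaks and covered the annotated starts of *Mirlet7b* and *Mirlet7c-2*, microRNAs of the let-7 family. The GFP- peak that gave the rank of 94.3 (chr15:85708930-85711185) did not lie at these starts. The region nearest the gene, at -9.97 kb, was the highest in GFP+, at 90.3 and 88.5.

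Upstream of *Ppargc1a* regions at -23.9 and -28.1 kb from the upstream start had ranks of 86.1 and 85.9 and of 86.0 and 84.1, close to those of the starts themselves. Its flanks held no GFP- only region and 2 GFP+ only regions, of ranks 12.6 and 8.85. Upstream of *Ppargc1b*, at -47.4 kb, a region ranked 98.4 in GFP- and 98.5 in GFP+. The flanks of *Esrra* and *Perm1* lay among neighbouring genes, with 8 and 6 regions at starts of genes such as *Bad* and *Agrn*, all in both lists. Their leading flank regions were alike, at 92.0 and 90.2 for *Esrra*, at -16.3 kb, and at 82.4 and 82.7 for *Perm1*, at -43.8 kb. These lay inside *Gpr137* and *Agrn*, respectively.

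Of 182 GFP- peaks of the 10 genes away from their starts, 50 (27.5%) held AGGTCA and 3 (1.65%) the ERR site within the 300 bp around the summit, against 24.3% and 0.944% of all GFP- peaks away from starts. The MEF2 site was in 14 (7.69%) against 7.28%. In the GFP+ list 43 of 158 (27.2%) held AGGTCA, against 25.6%, 1 (0.633%) the ERR site, against 1.07%, and 14 (8.86%) the MEF2 site, against 8.19%. A match describes the letters only.

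The partners of these genes were compared by their best start peak. All 31 partners and coregulators, among them the PGC-1 related *Pprc1*, *Nrf1*, *Gabpa* and the corepressor *Ncor1*, had a start peak in both lists, with a median difference of -0.34 points and none beyond 20. The 36 PPAR and ERR targets reported, among them the fatty acid oxidation genes *Cpt1b* and *Acadm*, had a peak in both lists as well, with a median difference of -0.335 points. The median over the 12802 genes with peaks in both lists was -0.731.

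Of the 41 other nuclear receptors reported, 29 had a start peak in both lists and 10, among them the liver receptors *Hnf4a* and *Nr1i2*, in neither. *Nr1h4*, the bile acid receptor, had a GFP- peak only (44.7) and *Esr1*, the estrogen receptor α, a GFP+ peak only, of rank 1.24. The 10 metabolic genes thus had best start peaks of a median rank of 96.0 in GFP- and 95.6 in GFP+, near the 97.7 and 96.2 of the other receptors with a peak and above the 90.5 and 89.3 of all genes with one.

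**Figure D5:**
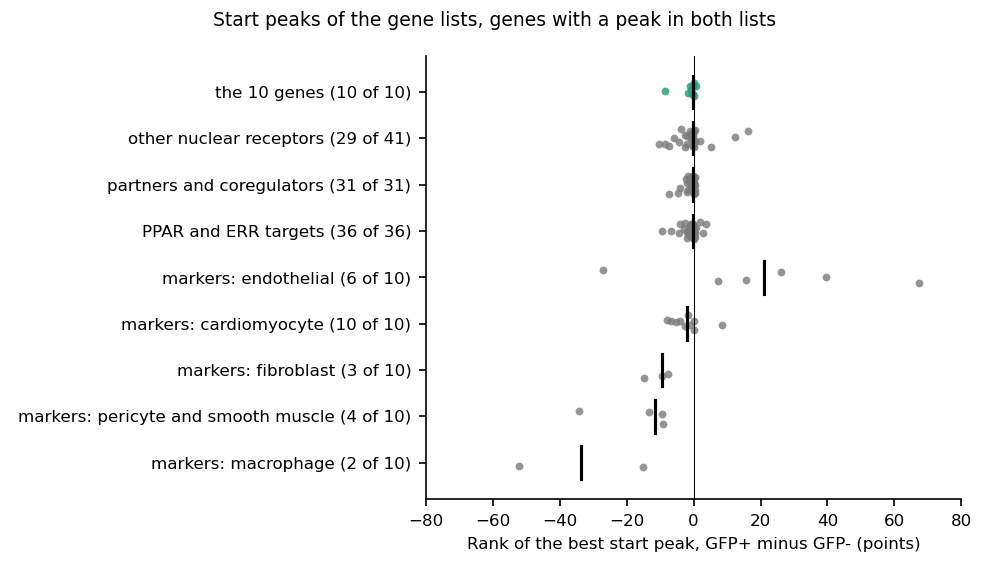
Difference in the rank of the best start peak, GFP+ minus GFP- (points), for each gene of a list with a peak in both lists, with the number of such genes in brackets and a black line at the median of each list. The 10 genes lie between -8.63 and 0.635, and the endothelial markers spread to the right.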

How the data were processed

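ATAC-Seq was performed by the authors on sorted GFP+ and GFP- nuclei. Per the labels and the study's methods, reads were mapped to mm10 with Bowtie2 (2.3.5.1 in the submitters' processing notes), filtered with SAMtools (1.19 in the same notes), cleared of duplicates with Picard and downsampled to a common depth, and peaks were called with Genrich on both replicates of a population together. The area deposited for a peak adds up a signal along the peak. The -log10 p-value deposited beside it, taken at the summit, served as an alternative rank. The score deposited by the authors was not used. Because replicates were pooled and no read counts were used, no test was made, and the precision of an area is unknown.

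Peaks were ranked by area, as percentiles of their own list. Starts came from all transcripts of GENCODE M21. Start peaks overlapped a start +/- 250 bp. Other peaks were placed by their summit in introns, exons or within 50 kb of the gene. Regions are merged overlapping peaks of both lists, and a large difference is one over 20 points. Chromosomes 1 to 19 and X were considered. Python 3.11.15, numpy 2.4.6, pandas 2.3.3, scipy 1.17.1 and matplotlib 3.10.9 were used, and overlap, rank and motif steps were tested on simulated data.

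The genes and lists were chosen with earlier results of these data known. Of the 3 pathway lists, genes with a start peak in 1 list only or a difference over 20 points are named, and of introns and flanks the highest-ranked peak per gene and the highest in 1 list only. Other regions and list genes were named after their values were seen. Some genes of the lists are not reported here.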

Additional observations from a re-analysis of the deposited data

How the results depend on the processing

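Of 62 recalculations of 9 results with 1 choice changed, 51 left the result within its interval or within 1.5 times its count. All 10 genes kept a start peak in both lists under the 6 alternatives tried. With the 5′ end of the gene record as the sole start, 10 start groups had a GFP- and 10 a GFP+ peak, since each gene then has 1. Requiring 50% of both peaks to overlap gave 68.2% and 76.5% of intronic GFP- and GFP+ peaks and 53.6% and 62.7% of flank peaks. Flanks of 20 kb gave 85.7% of GFP- peaks, and lists of equal length 91.4% of intronic GFP- peaks. The shares of all genes were not calculated under these rules, so these values cannot be set against the shares of all genes given above. The median difference turned positive with lists of equal length, at 0.105 points for start groups and 1.02 for intronic regions, since small GFP- peaks are then dropped and every GFP- rank falls, and was 1.3 at start groups with area per bp as the rank, where the cause was not tested. Counts of differences over 20 points under other ranks were added after seeing the data. At start groups they gave 1 higher with lists of equal length, where 2.89% of all start groups were. They gave 1 lower with the p-value rank and 1 with area per bp, where 6.04% and 9.25% were. No paired analysis was possible because each list pools both replicates, and for the same reason no replicate could be left out. Libraries were downsampled to a common depth before calling, and read counts were not used here.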
